A study of Mus musculus with 4 samples.

Results

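The neuroendocrine miRNAs described here are 10 mature mouse miRNAs that neurons and pancreatic β-cells share or that are known to act in insulin secretion: mmu-miR-9-5p, mmu-miR-9-3p, mmu-miR-124-3p, mmu-miR-129-5p, mmu-miR-137-3p, mmu-miR-153-3p, mmu-miR-184-3p, mmu-miR-204-5p, mmu-miR-218-5p and mmu-miR-338-3p. They were chosen by name for these known roles from the 1915 mature miRNAs in the deposited table (the prefix mmu- is left out from here on). The miRNA-seq experiment asked how the miRNA content of MIN6-derived exosomes differs from that of the parent cells. Both groups came from unmodified MIN6 cells, a mouse insulinoma line that secretes insulin, kept in DMEM with exosome-depleted fetal bovine serum, antibiotics and β-mercaptoethanol, with no treatment. The cells were sequenced as 2 libraries, and so were the exosomes, which were collected by filtration and ultracentrifugation of conditioned medium pooled over several flasks. No source says whether the 2 libraries of a group came from separate cultures, so the p-values measure the spread between these libraries, which may be technical. MIN6 is a tumor line, and its exosomes stand for those of 1 line in culture rather than of an islet.

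miRNAs are short RNAs that repress messenger RNAs, mainly through pairing of their bases 2 to 8, the seed. Neurons and β-cells use much of the same machinery to release vesicles and both lack REST, a repressor that silences neuronal genes in other cells, and the miRNAs of this group sit in that overlap. In β-cells, miR-9 is known to raise granuphilin by repressing Onecut2 and so to dampen insulin release, miR-124 represses the transcription factor Foxa2, miR-184 represses Argonaute2, and miR-204 represses MafA. Exosomes are small vesicles that carry a portion of the miRNAs of the cell that released them.

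Only 3 of the 10 neuroendocrine miRNAs, miR-184-3p, miR-129-5p and miR-124-3p, were found in both exosome libraries, and these were also the 3 most abundant of the group in the cells. On the composition-corrected scale, miR-129-5p was 4.22-fold lower in the exosomes, whereas miR-184-3p and miR-124-3p did not pass the test. The log2 change of miR-129-5p was -2.08 on that scale, beside a median of -0.75 over all tested miRNAs. miR-129-5p no longer passed with library size alone, with upper quartile scaling or with a replicate block. Within each library, the order of miR-129-5p and miR-124-3p was opposite in cells and exosomes, a pair chosen after its values were seen. In exosome replicate 2, with 28 and 39 counts, these 2 miRNAs were within counting error of each other. miR-137-3p and miR-153-3p were seen in the cells alone, and the remaining miRNAs were too rare in the cells to be followed at the depth of the exosome libraries.

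The sequences of the group are shown because they let its members be told apart in short reads. For 9 of the 10 names a mature sequence was found in the RefSeq table for GRCm38.p6, and they are written 5′ to 3′ with the seed in capitals.
miR-184-3p: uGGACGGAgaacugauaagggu
miR-129-5p: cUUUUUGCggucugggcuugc
miR-137-3p: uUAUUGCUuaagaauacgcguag
miR-153-3p: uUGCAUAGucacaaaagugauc
miR-338-3p: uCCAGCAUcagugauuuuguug
miR-9-5p: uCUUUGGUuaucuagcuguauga
miR-9-3p: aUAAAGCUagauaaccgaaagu
miR-204-5p: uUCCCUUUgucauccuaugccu
miR-218-5p: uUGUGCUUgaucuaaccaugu

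No 2 of these 9 seeds were alike, so a read of one member was not expected to be taken for another. Outside the group, miR-204-5p shared its seed with miR-211-5p (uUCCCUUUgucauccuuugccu) and miR-7670-3p, and miR-218-5p shared its seed with miR-7002-3p. These relatives were nearly absent, with counts of 0, 2, 0 and 0 for miR-211-5p in cell replicates 1 and 2 and exosome replicates 1 and 2, 2, 0, 0 and 0 for miR-7002-3p and 0 throughout for miR-7670-3p. None of the 9 mature sequences occurred in another gene among 139449 GENCODE vM21 transcripts. Their lengths ran from 21 to 23 bases and their GC content from 31.82% in miR-9-3p to 57.14% in miR-129-5p. The letters GGAG, which have been described in miRNAs sorted into exosomes, were present in miR-184-3p alone among the 9 and in 238 of 1679 mature sequences of the table (14.2%). The letters CCCU were present in miR-204-5p alone and in 191 of the 1679 (11.4%). Both motifs were read on the single mature strand, and they do not overlap each other.

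Most hairpins of the group lay in introns of protein-coding genes or within non-coding genes, and transcription from these genes was not measured. On GRCm38, Mir184 (chr9:89802260-89802328, minus strand) overlapped no other annotated gene. Mir153 (chr12:117250817-117250885, plus strand) lay in an intron of Ptprn2, which encodes a dense-core vesicle protein, and opposite an intron of the antisense gene Gm5441. Mir204 (chr19:22750605-22750672, plus strand) lay in an intron of the cation channel gene Trpm3, and Mir338 (chr11:120014765-120014862, minus strand) in an intron of the kinase gene Aatk. The 2 hairpins of miR-218 lay in introns of the axon guidance genes Slit2 (chr5:48223942-48224051, plus strand) and Slit3 (chr11:35616816-35616925, plus strand). Mir137 (chr3:118433857-118433929, plus strand) overlapped an exon of the non-coding gene Gm26871. miR-129-5p can come from either of 2 hairpins, Mir129-1 in an exon of the lincRNA Gm3294 (chr6:29022619-29022691, plus strand) and Mir129-2 in an intron of Mir670hg (chr2:94241364-94241453, minus strand). miR-9 can come from Mir9-1 in an intron of Gm3764 (chr3:88215598-88215686, plus strand), Mir9-2 in an exon of C130071C03Rik (chr13:83738814-83738885, plus strand) or Mir9-3 in an intron of Mir9-3hg (chr7:79505264-79505353, plus strand). The 3 hairpins of miR-124 overlapped exons of lincRNAs. A count of miR-9, miR-124, miR-129-5p or miR-218-5p is therefore a sum over loci.

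The depth of the libraries sets what can be said about the exosomes. The mature counts were 2930217 and 2564068 in the cells against 47447 and 31409 in the exosomes. The floor was set at 3 counts, which corresponded to 1.02 and 1.17 RPM (counts scaled to a fixed library sum) in the cells but to 63.2 and 95.5 RPM in the exosomes. The exosome libraries also differed more from each other than the cell libraries did, with a chi-square per degree of freedom of 22.6 against 10.6. Composition differed as well, with TMM factors of 0.660 and 0.612 for cells and 1.80 and 1.38 for exosomes, so values are given both as RPM and as TMM-normalized CPM. The cell libraries were checked on another instrument than the exosome libraries, and handling and group cannot be told apart. As for the labelled origin, the β-cell miRNAs miR-375-3p (26702, 25335, 507 and 222 counts in cell replicates 1 and 2 and exosome replicates 1 and 2) and miR-7a-5p (78620, 67072, 394 and 32) were present in every library, the latter with few counts in exosome replicate 2. So were miR-183-5p (19749, 18044, 109 and 18), miR-200c-3p (26391, 24894, 107 and 12) and miR-182-5p (758, 607, 5 and 12). The β-cell miRNA miR-96-5p was not, with 19 and 24 counts in the cells and 0 in both exosome libraries. Blood miRNAs, at 2.73 and 3.12 RPM in sum in the cells, reached 7503 and 2101 RPM in the exosomes, of 6 listed miRNAs with 3 at 0 in both cell libraries (miR-451a, miR-144-3p and miR-142a-3p). Listed mesenchymal and liver miRNAs, 8 in number, went from 49.8 and 53.8 RPM to 3815 and 4107 RPM, with miR-133a-3p and miR-206-3p at 0 everywhere. The part of either in the results for the neuroendocrine miRNAs was not tested.

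miR-184-3p, which restrains β-cell expansion through Argonaute2, was the most abundant of the group in all 4 libraries. Its counts were 14086 and 9421 in the cells against 381 and 144 in the exosomes. It ranked 29 among the 1031 miRNAs with a count in the cells and 24 among the 627 with a count in the exosomes. As RPM it stood at 4807 and 3674 in cells and at 8030 and 4585 in exosomes, means of 4241 ± 801 (SD, n = 2) and 6307 ± 2436 (SD, n = 2), and the groups overlapped. As TMM-normalized CPM it stood at 7292 and 6003 in cells and at 4492 and 3353 in exosomes, so that both exosome libraries were below both cell libraries. The fitted change was -0.76 on the log2 scale (standard error, SE, 0.41, adjusted p = 0.177 by edgeR's quasi-likelihood test), which does not pass the threshold of 0.05. With library size alone the sign turned (0.58, adjusted p = 0.424 by edgeR's quasi-likelihood test). Without exosome replicate 1 the value was -1.04, and the median of all tested miRNAs moved from -0.75 to -1.41. With no filter on low counts miR-184-3p was at -2.07 (adjusted p = 0.0329 by edgeR's quasi-likelihood test) and counted as lower. In that setting the median of the 1101 miRNAs tested stood at -1.67. The direction of miR-184-3p thus depended on the scale. The 3 tested miRNAs whose level ran closest to that of miR-184-3p were miR-24-3p, miR-375-3p and miR-328-3p, at Euclidean distances of 1.43, 1.86 and 1.93 over the 4 libraries in log2(CPM + 1).

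miR-129-5p, a miRNA of neurons known to repress a potassium channel, was second in the cells and lower in the exosomes. Its counts were 5697 and 6649 in the cells against 88 and 28 in the exosomes, and its rank went from 37 to 63. As RPM it stood at 1944 and 2593 in cells and at 1855 and 891 in exosomes (means of 2269 ± 459 and 1373 ± 681, SD, n = 2 each), so the groups were separate, with exosome replicate 1 just under cell replicate 1. As TMM-normalized CPM the gap was wider, with 2949 and 4237 in cells against 1038 and 652 in exosomes. If the level of the cells had been kept, 305 and 154 counts would have been found in the exosomes under TMM scaling and 108 and 71.3 under RPM. The fitted log2 change was -2.08 (SE 0.47, adjusted p = 0.0260 by edgeR's quasi-likelihood test), 4.22-fold lower, and the threshold of the study's methods (edgeR's exactTest, fold of at least 2, unadjusted p under 0.05) was also met, with p = 0.00045. The call was lost under 5 alternatives, among them library size alone (-0.71, adjusted p = 0.356) and upper quartile scaling (-1.37, adjusted p = 0.0504), and the removal of cell replicate 1 (-2.32, adjusted p = 0.140) or of cell replicate 2 (-1.80, adjusted p = 0.235), by edgeR's quasi-likelihood test. The value stayed below 0 in all of these settings.

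miR-124-3p, the best known neuronal miRNA, was, among the members above the floor in both groups, the one with the highest exosome level relative to the cells. Its counts were 1618 and 1342 in the cells against 163 and 39 in the exosomes, and its rank went from 84 to 43. As RPM it stood at 552 and 523 in cells and at 3435 and 1242 in exosomes (means of 538 ± 20.4 and 2339 ± 1551, SD, n = 2 each). As TMM-normalized CPM it stood at 838 and 855 in cells and at 1922 and 908 in exosomes. Both exosome libraries were above both cell libraries on either scale, but under TMM exosome replicate 2 was only just above them. The fitted log2 change of 0.75 (SE 0.49, adjusted p = 0.245 by edgeR's quasi-likelihood test) did not pass. It ranged from 0.05 without exosome replicate 1 to 1.23 without exosome replicate 2, and in the latter case it passed (adjusted p = 0.00265 by edgeR's quasi-likelihood test). It was 2.13 with library size alone (adjusted p = 0.0601) and turned to -0.53 with no filter on low counts (adjusted p = 0.607, edgeR's quasi-likelihood test in both). With no filter the median of the 1101 miRNAs tested stood at -1.67. Under TMM, the means of 846 ± 12.4 and 1415 ± 717 CPM (SD, n = 2 each) differed by less than the spread between the exosome libraries.

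**Figure D1:**
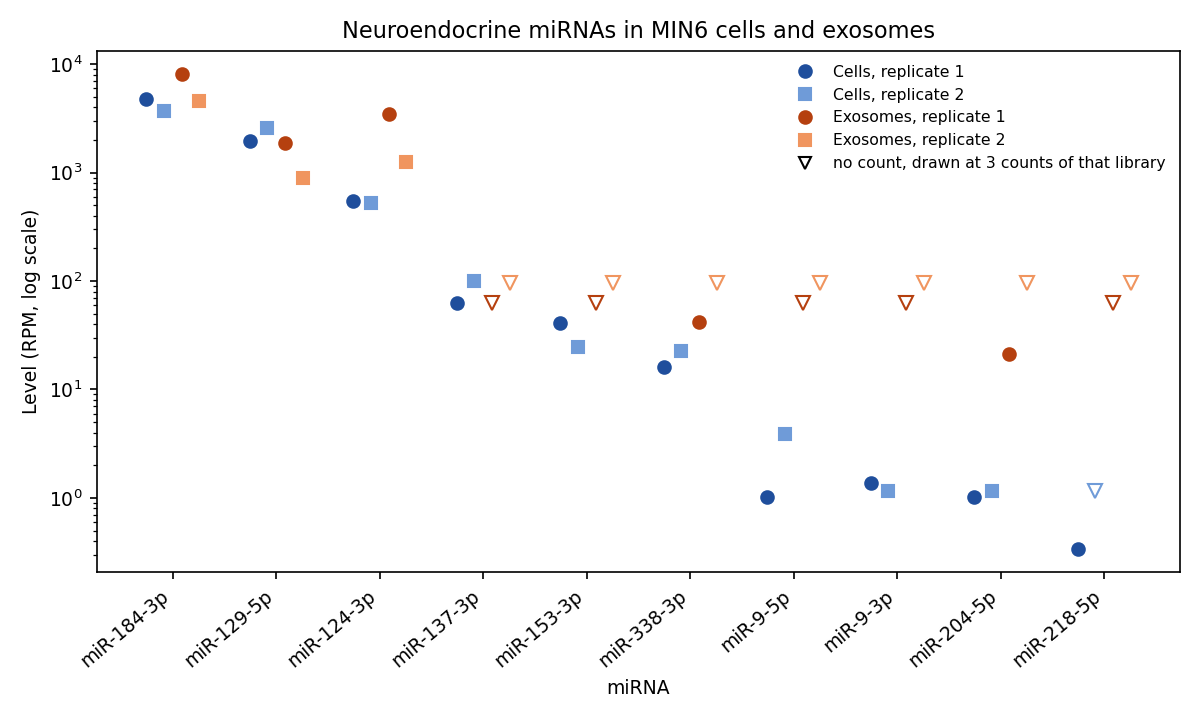
Level of each neuroendocrine miRNA (x axis) in RPM on a log scale (y axis), with 1 point for each of the 2 cell and 2 exosome libraries and open triangles at 3 counts where a library had none. miR-184-3p, miR-129-5p and miR-124-3p have filled points in every library, and from miR-137-3p on the floors of the exosome libraries, 63.2 and 95.5 RPM, lie near or above the levels of the cells.

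miR-137-3p, which tunes neuronal maturation and synapses, was present in the cells and had no count in the exosomes. Its counts were 185 and 254 in the cells, or 63.1 and 99.1 RPM, at rank 175. Under TMM scaling 10.9 and 5.53 counts would have been found in the exosomes at the level of the cells, and 0 were found in either. miR-137-3p entered the test through its cell counts alone, which favors a lower call. The adjusted p was 0.0287 by edgeR's quasi-likelihood test. With the mean of the cells set against the mean floor of 3 counts per exosome library, miR-137-3p was at least 2.45-fold lower under TMM. Library by library the margin was smaller, since cell replicate 1 stood at 95.8 CPM and the floor of exosome replicate 2 at 69.9 CPM. On the RPM scale, 3.85 and 2.55 counts would have been found, and the bound shrinks to at least 1.02-fold lower. The adjusted p was 0.0570 with library size alone, 0.0871 without cell replicate 1 and 0.145 without cell replicate 2, all from edgeR's quasi-likelihood test.

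miR-153-3p, encoded within Ptprn2 and known to act on vesicle release, was likewise seen in the cells alone. Its counts were 121 and 63 in the cells, or 41.3 and 24.6 RPM at rank 231, and 0 and 0 in the exosomes. It too entered the test through the cells alone and passed narrowly (adjusted p = 0.0475 by edgeR's quasi-likelihood test), but 4.36 and 2.21 counts would have been found under TMM scaling at an unchanged level, and 1.56 and 1.03 under RPM. No fold is given for miR-153-3p, because the floor in the exosomes does not exclude an unchanged level. The call was lost under 7 alternatives, among them the removal of cell replicate 1 (adjusted p = 0.225), of cell replicate 2 (adjusted p = 0.191) and of exosome replicate 1 (adjusted p = 0.0639), by edgeR's quasi-likelihood test.

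The hairpin tables gave 1 further detail for miR-153. Of the reads on its hairpin, 11.7% and 14.9% in the cells lay on neither annotated arm, and the 2 hairpin reads of exosome replicate 1 also lay there. For the miR-184 hairpin, 0 of 14184 and 0 of 9491 reads in the cells did so, and for the miR-137 hairpin 0 of 194 and 0 of 275. Reads attributed to miR-184 and miR-137 thus fell on the annotated mature arms alone, unlike those of miR-153.

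miR-338-3p, whose fall accompanies β-cell mass expansion in pregnancy and obesity, was near the limit of detection in the exosomes. Its counts were 47 and 58 in the cells, or 16.0 and 22.6 RPM at rank 275, and 2 and 0 in the exosomes. At an unchanged level 2.60 and 1.32 counts would have been found under TMM scaling, so no difference was detectable at this depth (adjusted p = 0.412 by edgeR's quasi-likelihood test), and no fold is given.

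The other 4 neuroendocrine miRNAs were scarce in MIN6 cells too, and did not pass the filter on low counts. The counts of miR-9-5p, the brake on insulin exocytosis, were 3 and 10 in the cells (1.02 and 3.90 RPM) and 0 in both exosome libraries. miR-9-3p from the opposite arm had cell counts of 4 and 3 (1.37 and 1.17 RPM) and 0 in the exosomes. miR-204-5p, the repressor of MafA, had cell counts of 3 and 3 (1.02 and 1.17 RPM) and 1 and 0 in the exosomes. miR-9-3p and miR-204-5p were thus within 1 count of the floor even in the deep cell libraries. miR-218-5p, known from motor neurons, had a single count, in cell replicate 1 (0.341 RPM). For each of these 4, fewer than 1 count would have been found in either exosome library at the level of the cells. The floor of the exosome libraries, at 63.2 and 95.5 RPM, was far above the levels of these miRNAs in the cells.

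In the cells, the order of levels from miR-184-3p through miR-129-5p, miR-124-3p, miR-137-3p, miR-153-3p and miR-338-3p to miR-9-5p was the same in both libraries, and each neighbouring pair was separate. The levels of miR-9-5p and miR-9-3p overlapped, as did those of miR-9-3p and miR-204-5p. In the exosomes, the order was miR-184-3p, miR-124-3p and miR-129-5p in both libraries, with the last 2 within counting error of each other in exosome replicate 2.

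**Figure D2:**
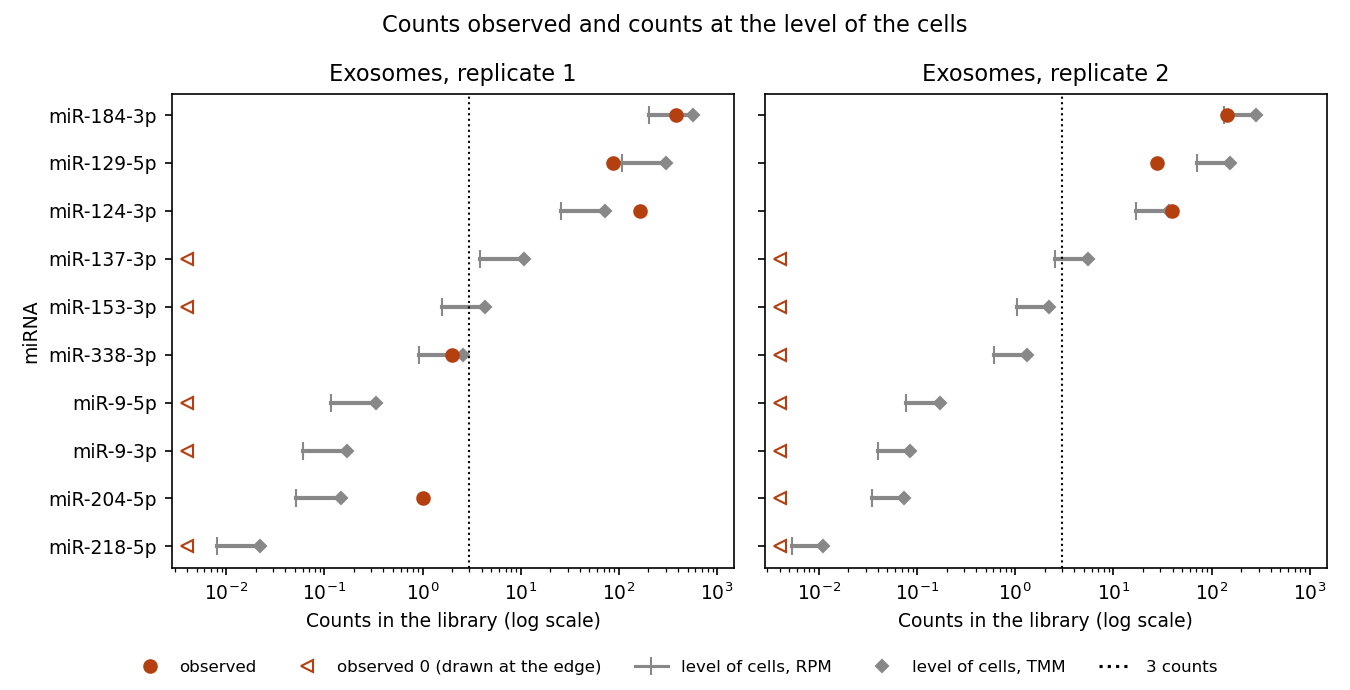
Counts of the 10 miRNAs in each exosome library (x axis, log scale) beside the count that the mean level of the cells would give there, drawn from its RPM value (tick) to its TMM value (diamond), with a dotted line at 3 counts. Only miR-184-3p, miR-129-5p, miR-124-3p and, in exosome replicate 1, miR-137-3p had unchanged-level counts above 3 on both scales, and the observed count of miR-129-5p lies left of its bar in both libraries.

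Over the group, 6 of 10 members were tested, of which 0 were called higher and 3 lower (miR-129-5p, miR-137-3p and miR-153-3p). Of all 438 tested miRNAs, 23.7% were called higher and 29.5% lower in edgeR's quasi-likelihood test (adjusted p, threshold 0.05). The same 3 members were lower by the exactTest at the threshold of the study's methods, which called 37.9% of all tested miRNAs lower and 27.4% higher. With library size alone, no member was called in either direction, against 31.3% of all tested miRNAs higher and 6.85% lower. The members miR-137-3p, miR-153-3p and miR-338-3p had passed the filter through the cells alone, which favors a lower call, although miR-338-3p was not called. Neither the count of 3 nor the tallies and medians that follow therefore stand as evidence on the group. Under TMM, both exosome libraries were below both cell libraries in 5 of the 6 tested members, against 51.8% of all tested miRNAs, and above them in 1, against 33.3%. On the RPM scale, 3 were below, against 33.8%, and 1 was above, against 41.3%. The median log2 fold change of the 6 was -1.53, or -0.38 with miRNAs at the floor set to their bound or to 0, and the median over all tested miRNAs was -0.75, or 0.00 in the same way. With library size alone the median of the 6 was -0.16 beside 0.61 for all tested miRNAs. The change of scaling thus moved the median of all tested miRNAs by 1.35. Set beside the median of all tested miRNAs, miR-184-3p lay at -0.76 beside -0.75 under TMM and at 0.58 beside 0.61 with library size alone, and miR-129-5p at -2.08 and -0.71 lay below the median in both. A change of scaling moves each miRNA and the median by about the same amount, so the 2 scalings are not independent support for these positions.

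**Figure D3:**
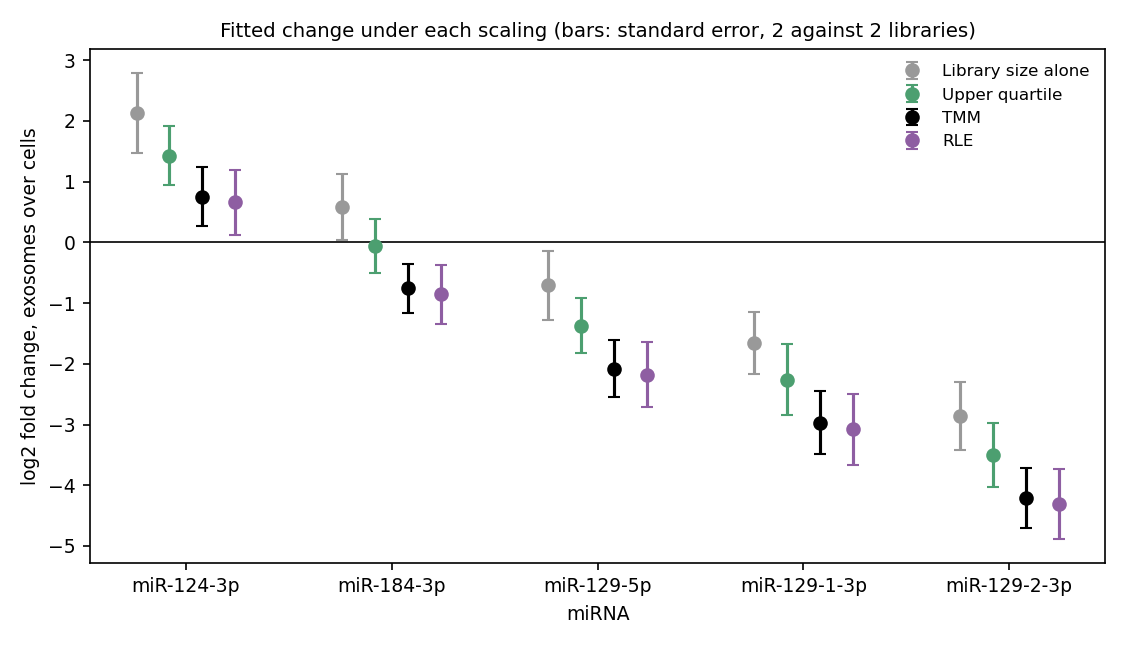
Fitted log2 fold change of exosomes over cells (y axis) for miR-124-3p, miR-184-3p, miR-129-5p and the 3p arms of miR-129 (x axis) under 4 scalings, with bars of 1 standard error from 2 against 2 libraries. The order from miR-124-3p at the top to miR-129-2-3p at the bottom is the same in each scaling, since a change of scaling moves all miRNAs by about the same amount. The sign of miR-184-3p turns from 0.58 with library size alone to -0.76 with TMM.

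Ratios between members of the same library do not depend on the scaling, and they separated the abundant members. miR-129-5p made up 77.9% and 83.2% of the sum of miR-129-5p and miR-124-3p in the cells (95% Wilson intervals 76.9 to 78.8% and 82.4 to 84.0%). In the exosomes it made up 35.1% and 41.8% of that sum (29.4 to 41.1% and 30.7 to 53.7%). There were thus 3.52 and 4.95 counts of miR-129-5p for each count of miR-124-3p in the cells against 0.540 and 0.718 in the exosomes, and no interval of one group met one of the other. This pair was chosen after its values were seen. Against miR-184-3p, miR-129-5p made up 28.8% and 41.4% of the sum in cells and 18.8% and 16.3% in exosomes (15.5 to 22.5% and 11.5 to 22.5%). miR-124-3p made up 10.3% and 12.5% of its sum with miR-184-3p in cells and 30.0% and 21.3% in exosomes (26.3 to 33.9% and 16.0 to 27.8%). In all 3 pairs the cell and exosome libraries were separate, miR-129-5p being lower and miR-124-3p higher in exosomes relative to miR-184-3p. The 3 pairs are built from the same 3 miRNAs and are not independent. Separation was common for single miRNAs under TMM, with exosomes below cells in 51.8% of all tested miRNAs and above in 33.3%. The intervals cover counting error only, and an exact permutation test of 2 against 2 libraries cannot go below p = 0.333.

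The other arms of the same hairpins gave a further readout for miR-129. miR-129-5p is shared by the 2 hairpins, but their 3p arms differ and are listed as miR-129-1-3p and miR-129-2-3p. The sequence of the more abundant one is shown because it tells the second hairpin from the first.
miR-129-2-3p: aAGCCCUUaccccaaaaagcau

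miR-129-2-3p had cell counts of 1981 and 2477 and exosome counts of 6 and 3. The fitted log2 change was -4.21 (SE 0.50, adjusted p = 0.00715 by edgeR's quasi-likelihood test), 18.5-fold lower, and it was also called lower with library size alone (-2.86, adjusted p = 0.0179). miR-129-1-3p had cell counts of 891 and 900 and exosome counts of 4 and 4. The fitted log2 change was -2.97 (SE 0.52, adjusted p = 0.0158 by edgeR's quasi-likelihood test), 7.85-fold lower, and with library size alone -1.66 (adjusted p = 0.0584). All 3 mature products of the miR-129 hairpins were thus called lower in the exosomes under TMM, as were 29.5% of all tested miRNAs. The 3 products come from the same 2 hairpins and are not independent. Only miR-129-2-3p kept the call with library size alone. The 3p arms together made up 33.5% and 33.7% of all miR-129 counts in the cells (Wilson intervals 32.5 to 34.5% and 32.8 to 34.6%). They made up 10.2% (5.64 to 17.8%) in exosome replicate 1 and 20.0% (10.04 to 35.9%) in exosome replicate 2. Both exosome shares were below those of the cells, but these rest on 10 and 7 counts, and the interval of exosome replicate 2 includes the cell values. miR-129-1-3p made up 31.0% and 26.7% of the 3p counts in cells, and 4 of 10 and 4 of 7 in exosomes, which is too few to set beside the cells.

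For the remaining hairpins the minor arms were too rare to follow into the exosomes. miR-184-5p had cell counts of 98 and 70 and exosome counts of 2 and 0, 0.691% and 0.738% of the hairpin's arms in cells against 0.522% (0.143 to 1.88%) and 0% (up to 2.60%) in exosomes. miR-124-5p had cell counts of 39 and 27, 2.35% and 1.97% of the arms, and 0 and 0 in the exosomes, where up to 2.30% and 8.97% are allowed by the Wilson intervals. For both arms the Wilson intervals of cells and exosomes overlapped. miR-338 was the exception in arm use, since its 5p arm made up 64.1% and 62.1% of the arms in the cells (84 and 95 counts), and the exosomes held 1 and 0 counts of it. miR-137-5p had cell counts of 9 and 21, 4.64% and 7.64% of the arms, and none in the exosomes. miR-204-3p had 1 count in cell replicate 2 and 1 in exosome replicate 1, and miR-153-5p, miR-218-1-3p and miR-218-2-3p had none in any library.

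**Figure D4:**
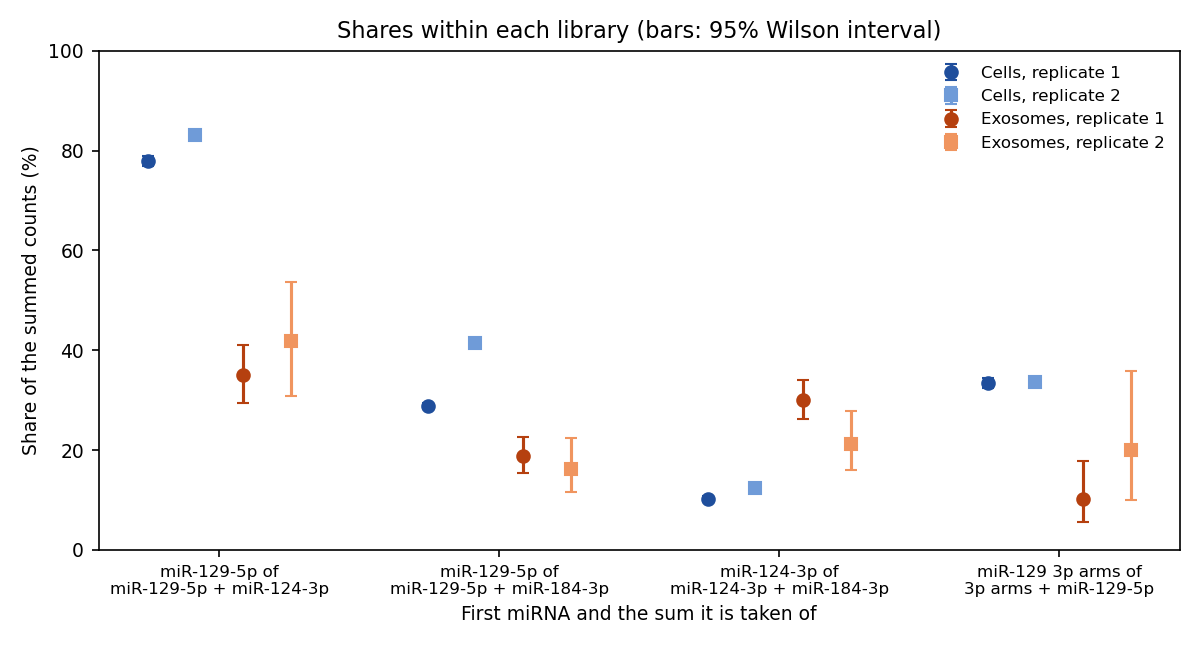
Share of the first-named miRNA in the summed counts of a pair, in % (y axis), for the 4 pairs named on the x axis, with 1 point for each library and 95% Wilson intervals as bars. For the pair of miR-129-5p and miR-124-3p the cell libraries lie at 77.9% and 83.2% and the exosome libraries at 35.1% and 41.8%, and only for the 3p arms of miR-129 does an exosome interval reach the cells.

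Summed, the 10 miRNAs took 21765 and 17803 counts in the cells, 0.743% and 0.694% of all mature counts (Wilson intervals 0.733 to 0.753% and 0.684 to 0.705%). In the exosomes they took 635 and 211 counts, 1.34% (1.24 to 1.45%) and 0.672% (0.587 to 0.768%). The exosome libraries thus lay on either side of the cell libraries, and the group means of 0.719% ± 0.0343 and 1.01% ± 0.471 (SD, n = 2 each) differed by less than the spread between exosome libraries. miR-184-3p, miR-129-5p and miR-124-3p together held 98.3% and 97.8% of these counts in cells and 99.5% and 100% in exosomes. miR-184-3p alone held 64.7% and 52.9% in cells and 60.0% and 68.2% in exosomes.

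Other miRNAs of neurons and β-cells give the setting for these values. Of 12 other neuronal miRNAs, 12 were tested, 2 were called higher and 2 lower, and their median log2 fold change was -0.06 (0.00 with those at the floor set to their bound or to 0). Of all 438 tested miRNAs, 23.7% were called higher and 29.5% lower, with a median of -0.75. With library size alone, 4 were called higher and 1 lower, and the median was 1.30. All tested miRNAs then gave 31.3% higher, 6.85% lower and a median of 0.61. miR-383-5p, the most abundant of them, had cell counts of 4326 and 2858 and exosome counts of 128 and 48 and was not called (-0.62, adjusted p = 0.221 by edgeR's quasi-likelihood test), and neither was miR-330-3p (-0.36, adjusted p = 0.447). miR-128-3p fell by 3.60 on the log2 scale (adjusted p = 0.0102 by edgeR's quasi-likelihood test), and miR-132-3p, with cell counts of 713 and 749 and exosome counts of 0 and 2, was also called lower (adjusted p = 0.0287). miR-132-3p passed the filter through the cells alone, which favors a lower call. The 2 called higher, miR-139-5p (4.28, adjusted p = 0.00650) and miR-134-5p (4.87, adjusted p = 0.0139, edgeR's quasi-likelihood test in both), were named after their values were seen. Of 13 other β-cell miRNAs, 11 were tested and 8 were called lower, with 0 higher and a median of -3.21 (-1.93 with bounds). The share lower over all tested miRNAs was 29.5% and the median -0.75. With library size alone 1 was called lower, against 6.85% of all tested miRNAs, and the median was -1.82 beside 0.61. miR-148a-3p (394 and 309 counts in cells, 1 and 0 in exosomes) passed the filter through the cells alone. Among them miR-375-3p changed by -1.43 (adjusted p = 0.0475), miR-7a-5p by -3.94 (adjusted p = 0.0397), miR-7b-5p by -3.68 (adjusted p = 0.0231) and miR-200c-3p by -4.23 (adjusted p = 0.0228), by edgeR's quasi-likelihood test. Neither list nor its direction was independent of the results already known for these libraries.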

How the data were processed

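Small RNA of MIN6 cells and MIN6-derived exosomes was sequenced with the SMARTer smRNA-Seq kit on the HiSeq2500. After adapter trimming and removal of rRNA, the authors aligned reads first to the genome, then to miRBase v21 and then to RNAcentral v10.0. They deposited raw read counts for each mature miRNA and each hairpin. The submitters' processing notes name cutadapt, Bowtie, STAR, RSEM, Bowtie2, edgeR and mm10, without roles. The RPM values deposited by the authors are counts over the library sum, and were recomputed here from the counts. Another 8 columns of values, reads per hairpin arm, were not used.

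Groups and replicate numbers came from the sample titles. The table was filtered with filterByExpr (minimum count 10), which kept 438 of the 1101 detected miRNAs. The 2 groups were compared in edgeR 4.0.16 (quasi-likelihood test, TMM), with Benjamini-Hochberg adjustment over all of them (R 4.3.3). Folds against a group at or under 3 counts per library are bounds, from the mean of the other group over the mean floor. Shares carry Wilson intervals (scipy 1.17.1). CPM is TMM-normalized. The members and lists were chosen with earlier results of these data known. Named are all members, their other arms and seed relatives, up to 4 miRNAs of each list by mean RPM (in cells, or in exosomes for the blood list and the mesenchymal and liver list), and the 3 nearest to the most abundant member. Outside this rule, miR-139-5p, miR-134-5p, miR-144-3p, miR-142a-3p, miR-133a-3p, miR-206-3p, miR-148a-3p, miR-182-5p, miR-183-5p and miR-96-5p were named after their values were seen. Alternatives were RLE, library size alone, upper quartile, DESeq2 1.42.0, exactTest, omission of the filter, a minimum of 10 counts in all 4 libraries, a replicate block, removal of the 5 most abundant miRNAs of each group, identical sequences counted once and removal of each library. The mesenchymal and liver list also holds muscle and endothelial miRNAs. Loci are GENCODE vM21 genes whose sequence matched the deposited hairpin.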

Additional observations from a re-analysis of the deposited data

How the results depend on the processing

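Exosome depth limits the group to 3 miRNAs that can be followed in both directions. Of 81 values recomputed for the 6 tested members under 14 alternatives, 60 kept direction and side of the threshold, 15 lost the call, 3 gained it and 3 turned direction, and the cause was not tested. Turned values were -0.53 for miR-124-3p with no filter, and 0.58 for miR-184-3p and 0.38 for miR-338-3p with library size alone. Members called lower numbered 3, but 0 with library size alone, 1 with upper quartile scaling (miR-137-3p), 1 with at least 10 counts in every library (miR-129-5p, where only 100 miRNAs were tested), and 0 to 3 with a library left out. Members called higher numbered 0, and 0 to 1 with a library left out, the 1 being miR-124-3p without exosome replicate 2. The summed share rose to 1.64% in cells and 2.19% in exosomes outside the 5 most abundant miRNAs of each group, whose removal shrinks the total. With a library left out it ran from 0.694% to 0.743% in cells and from 0.672% to 1.34% in exosomes.

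The replicate numbers were not taken to pair the libraries, since only 2 pairs exist and the sources name nothing that they share (correlation of same-numbered deviations 0.167). With the replicate number as a block, miR-129-5p missed the threshold (log2 fold change -2.09, adjusted p = 0.0597 by edgeR's quasi-likelihood test), leaving 2 members lower, and calls over all miRNAs were 117 higher and 109 lower.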

Other observations

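The 4 blood miRNAs with the highest exosome levels were near 0 in the cells. miR-486a-5p, an erythroid miRNA, had cell counts of 3 and 4 and exosome counts of 240 and 29. miR-150-5p, a lymphoid miRNA, had 4 and 4 against 48 and 22. miR-451a, of red cells, had 0 and 0 against 33 and 2, so that its exosome level rests on replicate 1, and miR-223-3p, of myeloid cells, had 1 and 0 against 17 and 12, at least 139-fold higher. Of the 6 listed, 5 were tested and 5 were called higher by edgeR's quasi-likelihood test, with a median log2 fold change of 9.62 (7.11 with bounds). Of all tested miRNAs, 23.7% were called higher. These 5 had at most 4 counts in a cell library and passed the filter through the exosomes alone. A higher call was thus nearly set by the filter, and neither tally nor median stands as evidence on the list. The culture medium held exosome-depleted serum, and the origin of these counts was not tested.

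Of the 8 mesenchymal and liver miRNAs, 6 were tested and 5 were called higher, with a median of 5.52 (5.35 with bounds), against 23.7% of all tested miRNAs called higher. Some of them, miR-145a-5p for example, passed the filter through the exosomes alone, so the tally does not stand as evidence on the list. miR-122-5p of hepatocytes had cell counts of 13 and 21 and exosome counts of 79 and 62, miR-126a-3p of endothelium 44 and 64 against 37 and 23, miR-143-3p of smooth muscle 37 and 21 against 39 and 19, and miR-145a-5p of the same tissue 3 and 1 against 17 and 19.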
